A study of Arabidopsis thaliana and Zea mays subsp. mays with 14 samples.

Results

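The comparison set seedlings that carry an H2AX-GFP transgene against wild-type Col-0 seedlings, by the regions of open chromatin called in each library. It took 2 H2AX-GFP libraries and 2 Col-0 seedling libraries, chosen by their titles, from a series of 14 samples of which 10 had a region list. The H2AX-GFP plants were the 35S:H2AX-GFP transgenic line in the Col-0 background, and they were set against wild-type Col-0 plants. In both groups the tissue was whole seedlings of 7 days, kept at 16 hours of light and 8 hours of dark for 7 to 8 days, and Tn5 was applied to 50000 sorted nuclei before 10 to 13 cycles of PCR. The 35S promoter of cauliflower mosaic virus drives expression in most plant cells. The labels name 1 transgenic line and do not say which H2AX gene it holds, how strongly the protein was made or whether libraries came from separate plants, so a p-value here speaks only of the variation among these libraries, part or all of which may be technical.

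H2AX is a variant of the core histone H2A. In plants as in animals it is built into nucleosomes across the genome, and kinases of the ATM and ATR family phosphorylate its tail at DNA breaks, which marks the site for repair. Arabidopsis has 2 H2AX genes, HTA3 and HTA5. In ATAC-seq the transposase Tn5 inserts adapters where DNA is not wrapped in nucleosomes, so called regions mark promoters, enhancers and other open sites. Here nuclei were first sorted by fluorescence, which lowers the share of plastid and mitochondrial DNA. Whether the H2AX-GFP nuclei were gated on GFP or on a DNA stain is not given in the sources consulted. A difference in gating could not be told apart from genotype.

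The H2AX-GFP libraries had 29309 and 24846 called regions in replicates 1 and 2, against 27632 and 23303 in the Col-0 seedling libraries. They covered 24.61 and 23.95 Mb in H2AX-GFP, against 22.39 and 21.02 Mb in Col-0 seedlings. The H2AX-GFP libraries averaged 24.28 ± 0.47 Mb and the Col-0 seedling libraries 21.71 ± 0.97 Mb (SD, n = 2 each), and the groups did not overlap in this total. The numbers of regions did overlap, at 27078 ± 3156 in H2AX-GFP and 25468 ± 3061 in Col-0 seedlings (SD, n = 2 each). The median region was 650 and 620 bp long in H2AX-GFP and 634 and 652 bp in Col-0 seedlings. The lists hold no read counts, so the depth of each library is unknown. A called region in bulk nuclei also cannot tell a site open in few nuclei from one that is less open in each.

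Marker genes of seedling shoots were covered in both groups above their level in roots. Genes of photosynthesis had on average 1689.5 and 1717.6 covered bases at their ends in H2AX-GFP, against 1426.2 and 1806.3 in Col-0 seedlings, and 744.3 and 587.8 in the root libraries of the series. Genes of the shoot epidermis and cuticle had 1378.0 and 1155.1 in H2AX-GFP, against 1219.5 and 1074.8 in Col-0 seedlings, and 403.3 and 192.2 in roots. The root list stood at 789.2 and 342.2 in H2AX-GFP, against 659.9 and 362.7 in Col-0 seedlings, and 1039.8 and 679.5 in roots. For this list H2AX-GFP replicate 1 lay above 1 of the root libraries, so it did not separate seedlings from roots in every library. Covered bases here are those inside called regions from 1000 bp outside to 200 bp inside either end of a protein-coding gene, at most 2400.

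The second H2AX-GFP library stood apart from the other 3 by position along the chromosomes. Windows of 1 Mb were called pericentromeric where annotated pseudogenes, which include transposon genes here, outnumbered protein-coding genes, and this held for 18 of 121 windows. In them called regions covered 5.28% and 11.08% of the bases in H2AX-GFP replicates 1 and 2, against 5.29% and 5.54% in Col-0 seedlings. Windows 1 to 4 Mb away were covered to 22.77% and 29.29% in H2AX-GFP, against 21.49% and 21.74% in Col-0 seedlings. The order turned on the distal arms. At 10 Mb or more, H2AX-GFP had 23.91% and 13.51%, against 20.38% and 17.26% in Col-0 seedlings. The 5 to 9 Mb class lay between, with 23.64% and 19.88% in H2AX-GFP and 21.47% and 19.62% in Col-0 seedlings.

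Relative to the mean of the Col-0 seedling libraries, H2AX-GFP replicate 2 was covered 2.047 times as much in pericentromeric windows and 0.718 times as much at 10 Mb or more. Replicate 1 ran the other way, with ratios of 0.976 and 1.27. Replicate 2 exceeded both Col-0 seedling libraries in 18 of 18 pericentromeric windows and in 0 of the 27 most distal ones, where it was below both in 26. Replicate 1 exceeded both in 3 of 18 pericentromeric windows and in 27 of 27 distal ones. The same tilt appeared on each of the 5 chromosomes. Within 4 Mb of a pericentromeric window, on chromosome 3 for example, lay 49.9% and 66.6% of covered bases in H2AX-GFP, against 52.4% and 55.5% in Col-0 seedlings. Over all chromosomes these shares were 38.1% and 53.6% in H2AX-GFP, against 39.7% and 43.0% in Col-0 seedlings. In the other 6 libraries they were 39.8% and 46.4% with 500 nuclei, 38.4% and 44.7% in roots and 33.6% and 37.0% in crude nuclei. Replicate 2 thus had the higher share in every group, and the highest was in H2AX-GFP. At 10 Mb or more, called regions covered 20.65% and 11.57% of the bases in the root libraries. What sets H2AX-GFP replicate 2 apart was not tested, and results that rest on it are given for each replicate below.

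**Figure D1:**
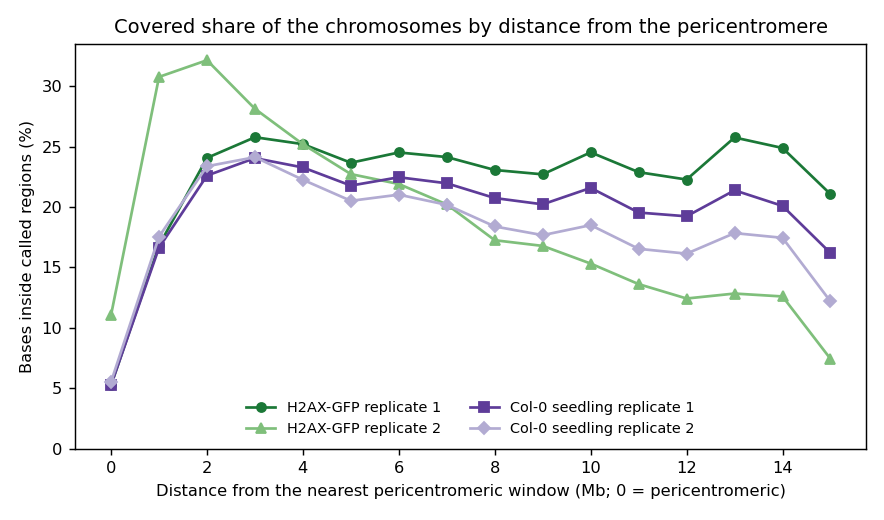
Share of bases inside called regions (%) against the distance of a 1 Mb window from the nearest pericentromeric window (Mb), with 1 line per library. H2AX-GFP replicate 2 starts at 11.08% against 5.29% and 5.54% in Col-0 seedlings and ends below all 3 other libraries.

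The overlap of libraries did not separate the genotypes. The base-pair Jaccard index, the bases shared by a pair of libraries over the bases covered in either, was 0.61 for the H2AX-GFP pair and 0.7 for the Col-0 seedling pair. The highest of the 6 pairs crossed genotypes, H2AX-GFP replicate 1 with Col-0 seedling replicate 1 at 0.797. H2AX-GFP replicate 1 with Col-0 seedling replicate 2 gave 0.672, and H2AX-GFP replicate 2 gave 0.614 and 0.664 with Col-0 seedling replicates 1 and 2. The mean within genotypes was 0.655 and the mean between them 0.686, a difference of -0.0312 (exact permutation test over the 3 ways to pair 4 libraries, two-sided, p = 1.0). The smallest p this exact permutation test can give is 0.333. The result depended on which pairs were taken, since both same-genotype pairs join replicates of different number. Pairs across genotypes averaged 0.73 with the same replicate number and 0.6428 with different numbers. Against the different-number pairs alone, a comparison added after the data were seen, the mean within genotypes was higher by 0.0125, which was not tested.

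The overlap of the H2AX-GFP pair also varied with position. It was 0.468 in pericentromeric windows, 0.638 at 1 to 4 Mb, 0.656 at 5 to 9 Mb and 0.53 at 10 Mb or more. The Col-0 seedling pair stayed between 0.689 and 0.703 in all 4 classes. H2AX-GFP replicate 1 with Col-0 seedling replicate 1 stayed between 0.787 and 0.802. The authors' score, used only to rank regions within a library, gave the same order at the extremes. Over 18251 regions called in all 4 libraries, its rank correlation was 0.929 for H2AX-GFP replicate 1 with Col-0 seedling replicate 1 and 0.797 for the H2AX-GFP pair. These correlations are across regions, which are not replicates.

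**Figure D2:**
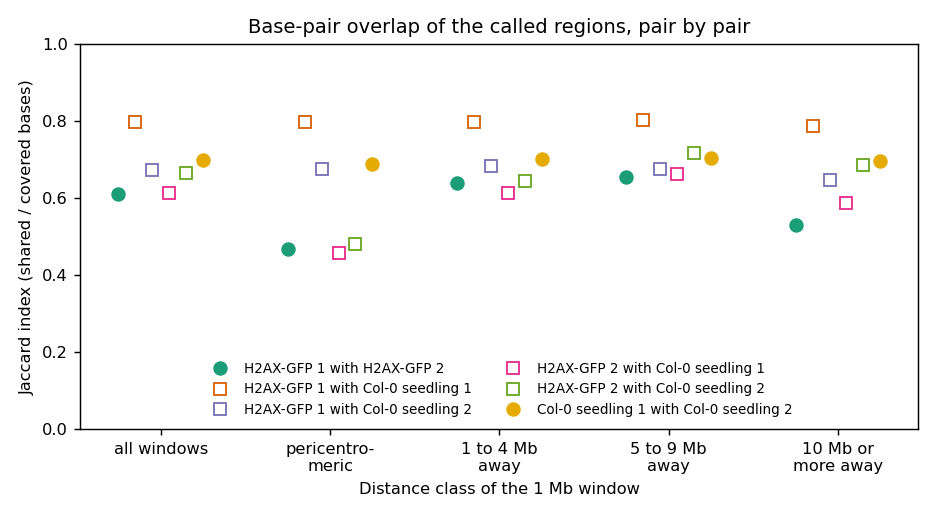
Jaccard index of covered bases for each of the 6 pairs of libraries, over all windows and in 4 distance classes, with filled circles for pairs of the same genotype and open squares for pairs that cross genotypes. The H2AX-GFP pair falls to 0.468 in pericentromeric windows and 0.53 at 10 Mb or more, and the pair of replicates numbered 1 stays near the top throughout.

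Most called regions were common to both genotypes. Merging the 4 lists gave 28913 regions, of which 18251 (63.12%) were called in all 4 libraries. In both H2AX-GFP libraries and neither Col-0 seedling library lay 522 regions, or 1.81%. In both Col-0 seedling libraries and neither H2AX-GFP library lay 65, or 0.22%. Regions called in 1 library alone numbered 1902 and 1647 in H2AX-GFP replicates 1 and 2 and 524 and 315 in Col-0 seedling replicates 1 and 2. A pattern that cut across genotypes was larger than either, with 2328 regions in both replicates 1 and neither replicate 2.

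The count of 522 rests on both H2AX-GFP libraries being required. Leaving a library out asks for only 1 library of that group. Without H2AX-GFP replicate 1 the counts were 2244 regions in H2AX-GFP only and 1399 in Col-0 seedlings only, and without H2AX-GFP replicate 2 they were 2590 and 174. Leaving out Col-0 seedling replicate 1 gave 1865 in H2AX-GFP only and 402 in Col-0 seedlings only, and leaving out replicate 2 gave 777 and 610. With the same number of top-scoring regions in each library, 22138, the counts were 256 for H2AX-GFP and 174 for Col-0 seedlings.

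Regions found in 1 genotype alone among the 4 libraries compared were weak and short. The 522 regions had a median score percentile of 12.5 and 18.2 within the H2AX-GFP libraries, and the 65 had 9.5 and 10.8 within the Col-0 seedling libraries. Regions called in all 4 had medians of 66.4 and 61.4 in H2AX-GFP, against 63.9 and 58.4 in Col-0 seedlings. The score ran with length, so rank and length are not separate facts: their rank correlation was 0.789 and 0.818 in H2AX-GFP and 0.794 and 0.835 in Col-0 seedlings. The median covered length was 319 and 328 bases for regions in H2AX-GFP only, against 273 and 250 bases for regions in Col-0 seedlings only. Of the 522, 302 overlapped a region in at least 1 of the other 6 Col-0 libraries of the series, and 220 did not. Of the 65, 57 did and 8 did not. By place, 41 of the 522 were pericentromeric, 279 lay at 1 to 4 Mb, 167 at 5 to 9 Mb and 35 beyond.

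Among the 8 regions ranked highest in each direction, the strongest lay in Col-0 seedlings only, on chromosome 2 at 3626594 to 3626907 (TAIR10), 133 bp from the annotated gene AT2G08986. It stood at the 94.1 and 99.9 score percentiles in Col-0 seedlings and was covered over 103 to 314 bases in 5 of the 6 other libraries. The H2AX-GFP region with the highest mean percentile lay on chromosome 4 at 2037559 to 2037903, 1612 bp from the receptor-like protein gene RLP46. It had 300 and 341 covered bases in H2AX-GFP and 0 in both Col-0 seedling libraries, with 215 bases in a library of 500 nuclei. The lowest ranked of the 8 H2AX-GFP regions, on chromosome 4 at 6206 to 7031, overlapped BRCA2(IV), a gene of DNA repair. It covered 788 and 785 bases in H2AX-GFP and 0 bases in both Col-0 seedling libraries, with 70 bases in a library of 500 nuclei and 0 in the other 5. A region on chromosome 1 at 12463821 to 12465218 within AT1G34220 had 533 and 1398 bases in H2AX-GFP and 0 in all 8 other libraries. The remaining regions of the 8 were also covered in other Col-0 libraries. The region at AT1G32220 had 343 and 352 bases with 500 nuclei. On chromosome 4, those starting at 3056129 and 4000291 had up to 254 and 342 bases. The region at AT2G26750 had up to 253, and the one at AT3G56210 had 51 with 500 nuclei.

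Merging all 10 lists left 1 region that was called in all 8 other libraries and in neither H2AX-GFP library, on chromosome 1 at 19962784 to 19963489. It spans the left ends of MRD1 and HEI10, which overlap in the annotation. HEI10 encodes a ubiquitin ligase that marks sites of crossing over in meiosis. At the ends of HEI10, covered bases were 0 and 0 in H2AX-GFP and 636 and 633 in Col-0 seedlings (difference -634.5, limma SE 108.4, adjusted p = 0.392). The other 6 libraries had 178 to 614. MRD1 had 0 and 0 in H2AX-GFP and 416 and 413 in Col-0 seedlings. A second region inside both genes was shorter in H2AX-GFP. Replicate 1 had 161 bp there, at 19964135 to 19964295, and replicate 2 had none, against 425 and 364 bp in Col-0 seedlings.

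The gap did not extend to the flanking genes. The flanking gene MSL4, for a mechanosensitive channel, had 1099 and 1105 covered bases in H2AX-GFP, against 1009 and 1052 in Col-0 seedlings. MUM4, for a rhamnose synthase of seed mucilage, had 1200 and 849 in H2AX-GFP, against 1200 and 1149 in Col-0 seedlings. MPK18, for a MAP kinase, had 2286 and 2056 in H2AX-GFP, against 2311 and 2274 in Col-0 seedlings. These neighbours were covered in every library, and the groups overlapped at MUM4 and MPK18 but not at MSL4. Further off the groups differed in both directions. AT1G53540 had 1499 and 1145 in H2AX-GFP, against 924 and 746 in Col-0 seedlings. AT1G53550 had 983 and 307 in H2AX-GFP, against 0 and 22 in Col-0 seedlings. AT1G53440 had 588 and 519 in H2AX-GFP, against 641 and 697 in Col-0 seedlings. MRD1 and the genes of this paragraph are given for their place near HEI10, and were chosen after the values were seen.

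In the reverse merge, 220 regions were called in both H2AX-GFP libraries and in no other of the 10. Regions called in all 10 numbered 12394, out of 29359 merged.

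Called regions lay near gene ends more often than the length of these stretches alone would give, and least so in H2AX-GFP replicate 2. The stretches up to 1000 bp outside a protein-coding gene make up 19.77% of the chromosomes, and held 47.25% and 41.77% of region midpoints in H2AX-GFP, against 48.52% and 47.36% in Col-0 seedlings. Relative to the share of the chromosomes this is 2.251 ± 0.196 in H2AX-GFP and 2.425 ± 0.042 in Col-0 seedlings (SD, n = 2 each). The difference of -0.174 is smaller than the SD within H2AX-GFP. Replicate 1, at 2.39, was close to the lower Col-0 seedling library at 2.396, and replicate 2 was at 2.113. The 522 regions found in H2AX-GFP only were nearer to an even spread, with a ratio of 1.415, against 2.101 for the 65 in Col-0 seedlings only and 2.438 for the regions called in all 4.

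Inside genes the H2AX-GFP libraries were covered more, as they were over the chromosomes as a whole. Called regions covered 20.66% and 20.1% of the chromosomes in H2AX-GFP, against 18.8% and 17.64% in Col-0 seedlings. At the gene end itself 58.46% and 49.12% of the 28874 ends of genes of at least 2000 bp were covered in H2AX-GFP, against 55.14% and 49.47% in Col-0 seedlings. At 1000 bp inside the gene the shares were 6.68% and 11.01% in H2AX-GFP, against 5.18% and 5.39% in Col-0 seedlings, so the groups did not overlap there. Protein-coding gene spans were covered over 16.76% and 18.53% of their bases in H2AX-GFP, against 14.7% and 14.42% in Col-0 seedlings. Genes covered from end to end made up 3.35% and 7.25% in H2AX-GFP, against 2.59% and 3.75% in Col-0 seedlings, and here the groups overlapped.

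**Figure D3:**
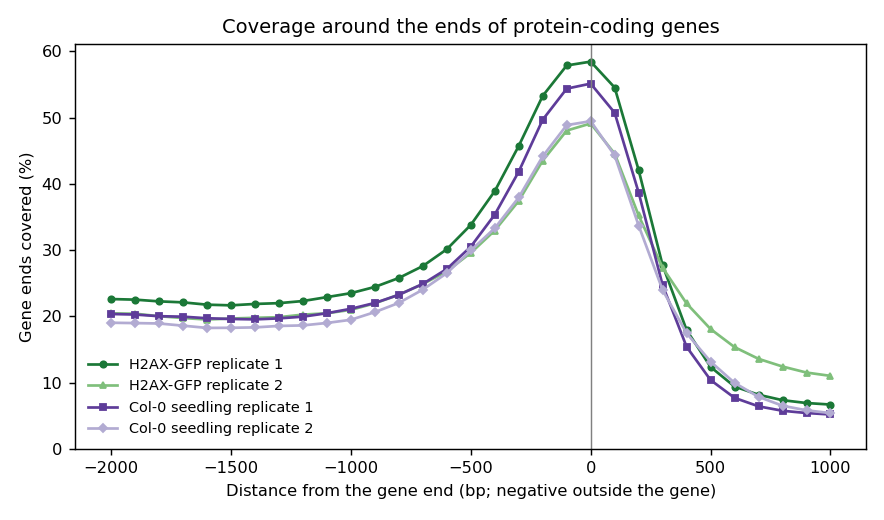
Share of protein-coding gene ends inside a called region (%) against distance from the end (bp, negative outside the gene), with 1 line per library. Outside the gene H2AX-GFP replicate 2 follows the Col-0 seedling libraries, and at 1000 bp inside it stands at 11.01% against 5.18% and 5.39%.

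Other kinds of gene gave the following shares with any covered base. Of 326 microRNA genes, 29.1% and 26.7% were covered in H2AX-GFP, against 22.4% and 22.7% in Col-0 seedlings. Of 3917 pseudogenes, 5.9% and 7.6% were covered in H2AX-GFP, against 5.6% and 4.9% in Col-0 seedlings. Of 926 transcribed pseudogenes, 30.2% and 31.5% were covered in H2AX-GFP, against 27.3% and 23.4% in Col-0 seedlings. These 3 classes did not overlap between the groups, and neither did the total of covered bases. The 625 tRNA genes, transcribed by RNA polymerase III, did overlap, with 77.9% and 77.3% in H2AX-GFP and 76.3% and 77.3% in Col-0 seedlings. Long noncoding RNA genes overlapped as well, with 52.0% and 46.4% in H2AX-GFP and 48.4% and 43.6% in Col-0 seedlings. So did small nucleolar RNA genes, with 58.9% and 57.5% in H2AX-GFP and 52.6% and 64.5% in Col-0 seedlings. Small nuclear RNA genes had 69.5% and 63.4% in H2AX-GFP and 65.9% and 61.0% in Col-0 seedlings, which overlap. Protein-coding genes, for comparison, overlapped with 74.2% and 65.1% in H2AX-GFP and 71.1% and 64.3% in Col-0 seedlings.

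In the median width of shared regions the groups overlapped, and the width in H2AX-GFP replicate 2 again varied with place. Among the 18251 regions called in all 4 libraries, 2609 (14.3%) were wider in both H2AX-GFP libraries than in both Col-0 seedling libraries and 1141 (6.3%) were narrower. Their median covered length was 872 and 805 bases in H2AX-GFP, against 812 and 795 in Col-0 seedlings. In pericentromeric windows the medians were 992 and 1917 bases in H2AX-GFP, against 993 and 1089 in Col-0 seedlings. At 10 Mb or more they were 857 and 541 in H2AX-GFP, against 759 and 682 in Col-0 seedlings.

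At gene ends no gene passed the test between the genotypes. Covered bases were fitted with limma across all 10 libraries, and 23893 of 27444 protein-coding genes had coverage in at least 2 libraries and were tested. At a Benjamini-Hochberg adjusted p under 0.05, 0 genes were higher (0.0%) and 0 lower (0.0%) in H2AX-GFP, and the lowest adjusted p was 0.0925. At an unadjusted p under 0.05, limma gave 714 genes higher (2.99% of those tested) and 45 lower (0.188%). Without H2AX-GFP replicate 1 the median difference over genes was -46.5 bases, and without replicate 2 it was 91.5 bases. Such a fit assumes that a lone library varies like the other groups, so no count of genes is given from it.

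The median difference over genes was 23.5 bases higher in H2AX-GFP, while the replicates shifted in opposite directions. It was 91.0 bases for replicate 1 and -44.0 for replicate 2, each against the Col-0 seedling mean. The mean per gene was 995.6 and 859.6 bases in H2AX-GFP, against 913.5 and 833.5 in Col-0 seedlings. By distance, replicate 2 had a median difference of 421.5 bases at pericentromeric genes and -163.0 at genes 10 Mb or more away. Replicate 1 had -2.5 and 155.5 at the same genes. Scaling turned the sign of the median over genes, which was -18.25 after quantile normalization and -17.06 after division by covered length.

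Without regard to the test, 3195 genes (13.4%) had both H2AX-GFP values above both Col-0 seedling values and 1149 (4.81%) had both below. The higher share depended on place. It was 26.1% of pericentromeric genes, 24.0% at 1 to 4 Mb, 11.5% at 5 to 9 Mb and 3.2% beyond. Covered in both H2AX-GFP libraries and in neither Col-0 seedling library were 151 genes (0.632%), of which 103 lay within 4 Mb of a pericentromeric window and 91 had more covered bases in replicate 2 than in replicate 1. No other library of the series covered 62 of them. Covered in both Col-0 seedling libraries and in neither H2AX-GFP library were 14 genes (0.0586%), of which 5 were covered in no other library.

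The genes at 0 in both Col-0 seedling libraries with the widest coverage in H2AX-GFP were led by AT4G08160, with 649 and 2177 covered bases in H2AX-GFP (adjusted p = 1.0). AT5G26100 had 36 and 2400 in H2AX-GFP and 0 in the other 8 libraries. PMP22, for a peroxisomal membrane protein, had 241 and 1975 in H2AX-GFP. In these 3 genes most of the coverage was in replicate 2. AT2G05580 followed the same order with 772 and 1521, as did AT2G04046 with 578 and 1621 and AT2G05530 with 221 and 1529 in H2AX-GFP.

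Some genes of this group had like values in both H2AX-GFP replicates. LBD24, of the LOB-domain family of transcription factors, had 893 and 884 covered bases in H2AX-GFP and 0 and 0 in Col-0 seedlings (limma adjusted p = 0.267). It also had 396 in crude seedling replicate 1. AT2G16575 had 937 and 1039 in H2AX-GFP (adjusted p = 0.143), and also 638 and 339 in the root libraries. AT1G64360 had 829 and 795 in H2AX-GFP, and also 365 in crude seedling replicate 1. In the other 3 genes the replicates lay further apart. AT2G24800 had 598 and 1033 in H2AX-GFP. AT3G27025 had 1156 and 791 in H2AX-GFP and was covered in 5 of the 6 other libraries. LSH1, of the ALOG family of nuclear proteins, had 330 and 1292 in H2AX-GFP and 1081 in a crude seedling library.

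In the reverse direction the values were smaller. After HEI10, the largest was BSK6, of the brassinosteroid signalling kinases, with 0 and 0 covered bases in H2AX-GFP and 579 and 141 in Col-0 seedlings. AT5G25430 had 0 and 0 in H2AX-GFP and 355 and 237 in Col-0 seedlings, and AT1G24200 had 0 and 0 in H2AX-GFP and 249 and 321 in Col-0 seedlings. Both genes were at 0 in the other 6 libraries as well. The other 8 genes, AT1G13130, AT4G39820, CYP89A6, SSN2, AT2G31040, AT5G43230, ORS1 and AT1G23160, were at 0 in H2AX-GFP and had 1 to 344 bases in the Col-0 seedling libraries. None passed the test.

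**Figure D4:**
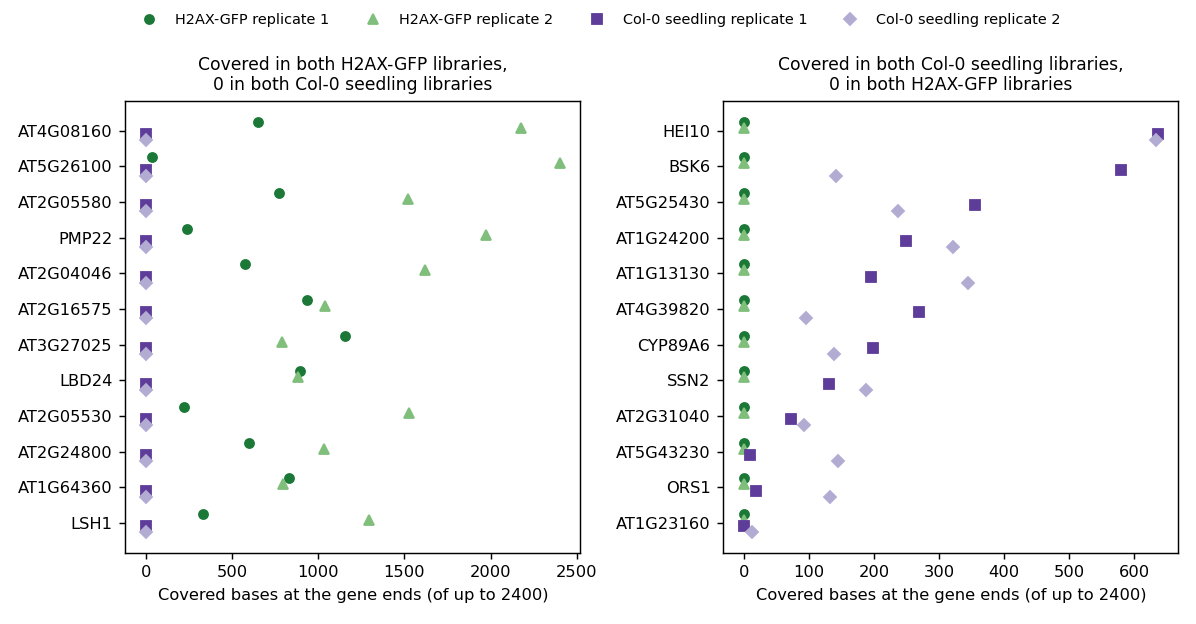
Covered bases at the gene ends, of up to 2400, per library for the 12 genes with the largest difference in each direction among those at 0 in both libraries of the other genotype. LBD24 and AT1G64360 have like values in both H2AX-GFP replicates, and HEI10 stands apart among the genes covered in Col-0 seedlings only.

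The genes with the lowest p were chosen after their values were seen. PRP1, for a proline-rich cell wall protein, had 696 and 670 covered bases in H2AX-GFP and 0 in Col-0 seedlings and in the other 6 libraries (limma adjusted p = 0.0925). Its neighbour NP2, a kinase gene that shares the window, had 672 and 646 in H2AX-GFP and 0 elsewhere. AT1G47655 had 1200 and 1498 in H2AX-GFP, against 115 and 0 in Col-0 seedlings. RLP23, a receptor for fragments of microbial necrosis-inducing proteins, had 1063 and 1098 in H2AX-GFP, against 57 and 0 in Col-0 seedlings. It also had 266 in crude seedling replicate 1. CYP82G1, an enzyme of homoterpene synthesis, had 501 and 559 in H2AX-GFP and 0 in the other 8 libraries. In each of these genes both H2AX-GFP values lay above both Col-0 seedling values, which follows from the choice by lowest p. PRP1, NP2 and CYP82G1 entered the fit, which asked for coverage in at least 2 libraries, only through the H2AX-GFP pair. With coverage asked for in at least 4 libraries, the lowest limma adjusted p was 0.156.

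Over whole gene spans, a measure added after the data were seen, limma called 19 of 20741 tested genes, all higher in H2AX-GFP (adjusted p under 0.05). AT5G40410 had 1674 and 1682 covered bases of a span of 1981 in H2AX-GFP, against 397 and 303 in Col-0 seedlings. AT1G56530 had 1485 and 1652 of 1652 in H2AX-GFP, against 419 and 315 in Col-0 seedlings. The genes for the stamen regulator MYB24, the cytokinin synthesis enzyme IPT7, the cell wall enzyme XTH15 and the disease resistance protein RPP27 had 190 to 393 bases in H2AX-GFP and 0 in Col-0 seedlings. MYB24, XTH15 and RPP27 were at 0 in the other 6 libraries as well. They entered the fit, which asked for coverage in at least 2 libraries, only through the H2AX-GFP pair. Their SE rests largely on libraries at 0, and some others of the 19 were alike in this. bZIP4 had 500 and 501 in H2AX-GFP, against 83 and 88 in Col-0 seedlings. All 19 genes came from this added measure alone, and with the gene-end window 0 genes were called.

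No H2A gene passed the test at its ends. Of 13, HTA4 had 0 bases in every library, 12 were tested and in 0 of them were the groups apart, against 13.4% of all genes above and 4.81% below. HTA3, named GAMMA-H2AX in the annotation, had 1488 and 2400 covered bases in H2AX-GFP, against 1407 and 1914 in Col-0 seedlings (difference 283.5, SE 326.48, limma adjusted p = 1.0). HTA5, named H2AXA, had 1233 and 1294 in H2AX-GFP, against 1131 and 1296 in Col-0 seedlings (limma adjusted p = 1.0). Both H2AX genes were open in all 4 libraries. The median difference over the 12 genes was 124.75 bases, but 36.0 for replicate 1 and 40.25 for replicate 2 alone.

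Among the genes for H2A.Z, a variant found at gene starts, HTA9 had 976 and 1394 covered bases in H2AX-GFP, against 1002 and 700 in Col-0 seedlings. HTA11 had 317 and 0 in H2AX-GFP and 0 and 0 in Col-0 seedlings. HTA8 had 1072 and 629 in H2AX-GFP, against 786 and 1066 in Col-0 seedlings. In each of these 3 genes the groups overlapped. H2A.W is the variant of plant heterochromatin, and its gene HTA7 had 1703 and 2085 in H2AX-GFP, against 1547 and 1749 in Col-0 seedlings. HTA6 had 323 and 245 in H2AX-GFP, against 325 and 216 in Col-0 seedlings, and HTA12 had 815 and 162 in H2AX-GFP, against 420 and 100 in Col-0 seedlings. The H2A.W groups overlapped as well, as did those of the canonical H2A genes. The canonical H2A gene HTA2 had 1200 in all 4 libraries, and HTA1 had 1200 and 975 in H2AX-GFP, against 1200 and 1200 in Col-0 seedlings. HTA10 had 1342 and 1987 in H2AX-GFP, against 1339 and 1540 in Col-0 seedlings, and HTA13 had 1442 and 1906 in H2AX-GFP, against 1421 and 1745 in Col-0 seedlings.

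Within its gene span HTA5 was covered more in both H2AX-GFP libraries. Of 1207 bases, 970 and 1207 were covered in H2AX-GFP, against 495 and 673 in Col-0 seedlings (limma adjusted p = 0.962). The other 6 libraries had 437 to 867; both H2AX-GFP values lay above all of them. In H2AX-GFP replicate 2 a single region ran from 2846306 to 2848406 on chromosome 1, across the gene, where the other libraries had separate regions at the 2 ends. HTA3 showed no such order, with 168 and 972 of 972 bases in H2AX-GFP and 474 and 972 in Col-0 seedlings. In the other H2A genes the groups overlapped over the span as well. Protein-coding gene spans as a whole were also covered more in H2AX-GFP, at 16.76% and 18.53%, against 14.7% and 14.42% in Col-0 seedlings. How many of all genes had groups apart over the span was not counted, so HTA5 cannot be set against that share. The lists cannot separate a transgene copy from the endogenous gene.

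Gene lists for functions near H2AX mostly followed all genes, where 13.4% lay above and 4.81% below both Col-0 seedling values. In the DNA damage response, 4 of 28 tested genes (14.3%) lay above and 1 (3.57%) below. The damage kinase gene ATM had 729 and 910 covered bases in H2AX-GFP, against 716 and 576 in Col-0 seedlings. TSO2, for a subunit of ribonucleotide reductase, had 1371 and 1446 in H2AX-GFP, against 1006 and 1351 in Col-0 seedlings. The transcription factor gene NAC085 had 1200 and 1119 in H2AX-GFP, against 870 and 1035 in Col-0 seedlings. The list's median difference was 52.5 bases, made of 183.0 in replicate 1 and -64.75 in replicate 2, against 23.5, 91.0 and -44.0 over all genes.

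Genes of histone exchange and remodelling had the highest share above, 6 of 18 tested (33.3%), with 1 (5.56%) below, against 13.4% and 4.81% of all genes. Over all genes the share above varied with place, so it is also given by place. Within 4 Mb of a pericentromeric window, 4 of 7 tested list genes lay above, against 24.1% of all genes there, and beyond it 2 of 11 did, against 8.07%. The 4 genes were ARP6, SWC6, ASF1B and CHR17, and the part of place in the count of the list was not tested. ARP6, a subunit of the SWR1 complex that loads H2A.Z, had 1817 and 2034 covered bases in H2AX-GFP, against 1641 and 567 in Col-0 seedlings. ASF1B, for a histone chaperone, had 1023 and 1827 in H2AX-GFP, against 586 and 989 in Col-0 seedlings. SWC6, also of the SWR1 complex, had 596 and 1425 in H2AX-GFP, against 586 and 310 in Col-0 seedlings. PIE1, the ATPase of that complex, lay below, with 369 and 172 in H2AX-GFP and 385 and 558 in Col-0 seedlings. The list's median was 56.5 bases, with 118.75 in replicate 1 and -31.75 in replicate 2, and 0 of its genes were called.

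The remaining lists gave counts of 0 to 5 genes above, and their genes are given as examples, not as calls. In cell cycle and replication, 3 of 21 tested genes (14.3%) lay above and 0 below, near the 13.4% and 4.81% of all genes. Among them was the replicative helicase gene MCM5 with 370 and 710 covered bases in H2AX-GFP, against 354 and 264 in Col-0 seedlings. The list also held CDC6, which loads that helicase, with 1613 and 1592 in H2AX-GFP, against 1511 and 1482 in Col-0 seedlings. In gene silencing, 2 of 17 (11.8%) lay above, against 13.4% of all genes, and 0 below. These were AGO1, with 1076 and 1065 in H2AX-GFP, against 916 and 653 in Col-0 seedlings, and AGO4, with 1449 and 1119 in H2AX-GFP, against 931 and 960 in Col-0 seedlings. Both encode Argonaute proteins, which bind small RNAs. The medians of these 2 lists were 28.5 and 49.5 bases.

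In photosynthesis, 5 of 44 genes (11.4%) lay above and 2 (4.55%) below, close to the 13.4% and 4.81% of all genes. The median was 92.5 bases, with 109.0 in replicate 1 and 97.75 in replicate 2. The light-harvesting gene LHCB1.3, CAB1 in the annotation, had 1775 and 1833 covered bases in H2AX-GFP, against 1349 and 1711 in Col-0 seedlings. LHCA4, for an antenna protein of photosystem I, lay below with 1482 and 1461 in H2AX-GFP, against 1838 and 1809 in Col-0 seedlings. In shoot epidermis and cuticle, 2 of 14 (14.3%) lay above and 0 below, with a median of 80.0 bases. BDG, for a cuticle hydrolase, had 2400 and 2116 in H2AX-GFP, against 1752 and 1200 in Col-0 seedlings (limma adjusted p = 0.964).

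Of 25 tested root genes, 3 (12%) lay above and 1 (4.0%) below, close to the 13.4% and 4.81% of all genes, with a median of 16.5 bases. PHO1, which loads phosphate into the xylem, had 334 and 327 covered bases in H2AX-GFP and 0 and 0 in Col-0 seedlings (limma adjusted p = 0.804). It had 595 and 450 in roots and 0 in the libraries of 500 nuclei and of crude nuclei. PLT2, a regulator of the root stem cell niche, had 268 and 179 in H2AX-GFP, against 82 and 0 in Col-0 seedlings and 181 and 167 in roots. FIT, the iron deficiency regulator, lay below with 605 and 585 in H2AX-GFP, against 625 and 871 in Col-0 seedlings and 1200 and 632 in roots.

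Wounding and stress was a list with 0 genes above and 2 of 24 (8.33%) below, against 13.4% and 4.81% of all genes, and a median of 0.5 bases. WRKY33, a regulator of pathogen defence, had 964 and 1035 covered bases in H2AX-GFP, against 1345 and 1786 in Col-0 seedlings. CBF2, of the cold response, had 1382 and 1335 in H2AX-GFP, against 1418 and 1699 in Col-0 seedlings. Of 20 clock genes, 0 lay above and 1 (5.0%) below. That was CHE, a repressor of the clock gene CCA1, with 1782 and 1762 in H2AX-GFP, against 1810 and 1990 in Col-0 seedlings, and the list's median was 32.75 bases. Of 13 housekeeping genes, 2 (15.4%) lay above and 1 (7.69%) below, with a median of 3.5 bases. The gene below was ACT7, with 1850 and 1144 in H2AX-GFP, against 1879 and 2063 in Col-0 seedlings.

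**Figure D5:**
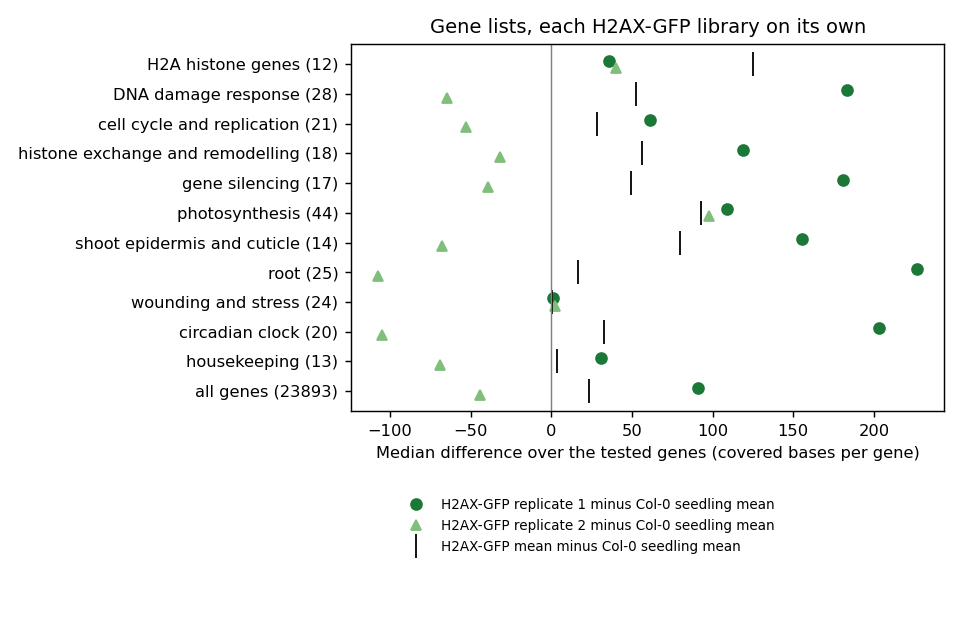
Median difference in covered bases per gene over the tested genes of each list (number in brackets) and over all genes, for H2AX-GFP replicate 1, for replicate 2 and for their mean, each minus the Col-0 seedling mean. Replicate 1 lies above 0 in every list and replicate 2 below 0 in all but the H2A, photosynthesis and wounding lists.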

How the data were processed

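Called ATAC-seq regions of 2 H2AX-GFP and 2 Col-0 seedling libraries were compared, with the other 6 libraries used for spread and context. The other 4 samples of the series were not analysed here. Each deposited list gives the position of every region and the authors' score for it, and what the score measures, which caller was run and how are not given in the sources consulted. The smallest gap between regions was 151 bp in every list. Positions are on TAIR10, as the submitters' processing notes state, and genes came from RefSeq TAIR10.1, joined by position. That table has no strand, so windows took both gene ends.

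Covered bases were computed with Python 3.11.15 and tested in R 4.3.3 by limma 3.58.1, with 10 libraries in 5 groups, lmFit, a trended robust eBayes and Benjamini-Hochberg adjustment, which was tested on simulated data. The replicate number was not treated as a pairing. Every one of the 246 genes in 11 lists was found by its locus tag. Named genes were the 12 per direction with the largest difference among genes at 0 in the other genotype, up to 3 per list and direction whose groups did not overlap, all H2A genes, and examples from the 8 top-ranked regions per direction. Genes beyond these are said to be chosen after their values were seen. Members and lists were chosen with earlier results of these data known, and distance classes and gene spans were added after the data were seen. No sequence is printed because no genome was used here. The values of 1 list gene are not reported here.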

Additional observations from a re-analysis of the deposited data

How the results depend on the processing

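Under windows of 500 bp and 2000 bp outside the gene, quantile normalization, division by covered length, coverage in at least 4 libraries, the 2 groups fitted alone and eBayes without trend and robust, limma called 0 genes, as in the result reported. It called 29 genes with the better-scoring 50% of regions (28 higher in H2AX-GFP), 2 with the same number of regions, 32 without a filter (28 higher) and 19 over gene spans. Leaving out 1 library gave 0 to 184. The replicate block, with the replicate number as a term, gave 0 genes. Deviations of same-numbered libraries correlated at 0.392 between the genotypes and at -0.22 to 0.514 between other groups, and the numbers were not taken as pairs. Division within each distance class, added after the data were seen, gave 0. The median over genes ran from -18.25 to 44 bases across these windows, filters and scalings, and from -46.5 to 91.5 without 1 library. The window at the gene start alone was not run, because the annotation used gives no strand.

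Regions in both H2AX-GFP libraries and neither Col-0 seedling library numbered 277 with the better-scoring 50%, 256 with equal numbers, and 777 to 2590 without 1 library. Those in Col-0 seedlings only numbered 114 when at least 50% coverage of the merged region was required, 35 with the better-scoring 50%, 174 with equal numbers, and 174 to 1399 without 1 library. The Jaccard difference kept its sign with the better-scoring 50%, with equal numbers and by merged regions, and turned to 0.0125 against between-genotype pairs of different replicate number alone, and the gene-end ratio moved by less than its SD. Of 176 recomputed list medians, 150 moved by less than the SD between replicates. That SD holds the gap between replicates 1 and 2, so a median could change sign and still be counted among the 150. The DNA damage median went from 52.5 to -62.0 bases without H2AX-GFP replicate 1. The photosynthesis median went from 92.5 to -51.0 bases without Col-0 seedling replicate 1. Among 36 named genes, 17 were called in at least 1 alternative, and AT1G13130 turned sign over its gene span, to 65.5 bases higher in H2AX-GFP. The cause of these moves was not tested. With 2 libraries per group and no read counts, neither depth nor outliers could be assessed.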
